A study of Rattus norvegicus with 9 samples.

Results

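The circadian clock genes of INS-1E cells were examined across the 3 treatment groups of an RNA-seq study. The set was taken by gene name and holds 10 genes, Arntl, Clock, Per1, Per2, Per3, Cry1, Cry2, Nr1d1, Nr1d2 and Dbp, out of 20645 genes measured, and all 10 were among the 12958 genes that passed the filter on low values, an average over the 9 libraries of 1 FPKM or more. FPKM scales the fragments of a gene by its length and by the sequencing depth of the library. INS-1E is a rat insulinoma line that secretes insulin and stands in for the pancreatic beta cell. It is a tumour-derived line kept in culture and not primary tissue. The BSA group received fatty-acid-free bovine serum albumin, the carrier of the fatty acid, and served as control. The PA group received 0.5 mM palmitic acid, a saturated fatty acid, and the PA + C3G group received the same palmitic acid mixed with 50 µM cyanidin-3-O-glucoside, an anthocyanin of dark-coloured fruit. Each exposure lasted 24 h and each group had 3 libraries of polyadenylated RNA. No group received C3G without PA, so an action of C3G on its own cannot be told apart from an action on the response to PA.

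In the core loop of the mammalian clock, CLOCK and BMAL1 (the product of Arntl) pair and activate genes that carry E-boxes, among them the Per and Cry genes, Nr1d1, Nr1d2 and Dbp. The PER and CRY proteins then block CLOCK and BMAL1, and the nuclear receptors encoded by Nr1d1 and Nr1d2 (REV-ERB alpha and beta) repress Arntl through ROR elements, so that Arntl and the E-box genes peak at opposite times of the day in most tissues. In pancreatic islets the clock is known to time insulin secretion, and loss of Bmal1 from beta cells impairs it.

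The promoters of the clock genes were searched for the letters of the elements of this loop. Those of the 4 genes with a match are printed to show where the letters stand. The share of all windows that hold any 1 of the elements was not counted. All 10 genes passed the test of PA compared to BSA given below, beside 51.0% of all tested genes. A link between a match and a change was not tested. Windows of 250 bases before to 50 bases after each transcription start were taken from RefSeq (assembly GRCr8). Of the 10 genes, 9 had one, 11 windows in all, and Cry1 had none. Only the 250 bases before the start are printed, 5′ to 3′ on the strand of the gene, with the matched letters in capitals. The Arntl window lies on the plus strand at chr1:176766078-176766327, the Nr1d1 windows on the minus strand at chr10:84231813-84232062 for start 1 and chr10:84229455-84229704 for start 2, the Per2 window on the minus strand at chr9:99496994-99497243, and the Cry2 window on the minus strand at chr3:98860438-98860687.
Arntl: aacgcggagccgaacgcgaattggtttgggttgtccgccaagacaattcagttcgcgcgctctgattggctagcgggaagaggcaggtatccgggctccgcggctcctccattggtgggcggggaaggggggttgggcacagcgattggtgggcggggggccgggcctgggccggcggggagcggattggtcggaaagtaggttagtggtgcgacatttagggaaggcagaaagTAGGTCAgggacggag
Nr1d1 start 1: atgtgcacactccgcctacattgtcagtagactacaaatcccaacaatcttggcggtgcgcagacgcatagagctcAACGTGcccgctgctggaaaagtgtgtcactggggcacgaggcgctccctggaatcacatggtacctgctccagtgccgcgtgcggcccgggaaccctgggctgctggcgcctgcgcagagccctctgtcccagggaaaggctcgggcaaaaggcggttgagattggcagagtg
Nr1d1 start 2: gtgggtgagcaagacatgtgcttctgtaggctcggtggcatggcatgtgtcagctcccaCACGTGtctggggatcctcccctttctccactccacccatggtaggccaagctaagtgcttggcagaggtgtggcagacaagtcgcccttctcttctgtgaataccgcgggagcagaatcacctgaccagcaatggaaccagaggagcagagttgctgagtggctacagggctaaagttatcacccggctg
Per2: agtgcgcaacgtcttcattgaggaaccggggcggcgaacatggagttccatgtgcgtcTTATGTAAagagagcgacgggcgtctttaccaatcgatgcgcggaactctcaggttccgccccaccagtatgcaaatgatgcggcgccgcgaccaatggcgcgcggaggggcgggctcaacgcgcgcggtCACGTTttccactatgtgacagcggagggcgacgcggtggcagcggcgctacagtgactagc
Cry2: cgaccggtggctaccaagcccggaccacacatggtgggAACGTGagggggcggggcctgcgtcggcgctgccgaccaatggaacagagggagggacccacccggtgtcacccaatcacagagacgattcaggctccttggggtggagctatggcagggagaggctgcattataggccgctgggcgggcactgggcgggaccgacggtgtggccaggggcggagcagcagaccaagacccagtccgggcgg

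In Arntl, the capitals mark TAGGTCA, the core of a ROR element, 16 bases before the start. The 2 spellings searched, TAGGTCA and TGGGTCA, were found on either strand in 6.60% of all 33469 windows. In Nr1d1, start 2 carried the E-box CACGTG 191 bases before it, a motif held by 6.42% of all windows, and start 1 carried AACGTG at 174 bases, which is the variant E-box CACGTT read on the other strand. That variant stood in 4.83% of all windows. Per2 carried it on the gene's own strand at 62 bases, together with TTATGTAA at 192 bases, a match to the D-box TTATGNAA, the element bound by DBP and its relatives and found in 3.66% of all windows. Cry2 held the variant E-box, read as AACGTG, at 212 bases. No letters of these motifs, nor of the cAMP element TGACGTCA, which 1.83% of all windows held, stood in the windows of Per1, Per3, Clock, Nr1d2 and Dbp. A match is a string of letters and was not shown to be a site in these cells. The search took exact letters within these short windows only. A window without a match therefore does not show that the gene lacks the element.

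The estimated counts per library summed to between 45559993 and 66730721, the lowest and the highest both in the PA + C3G group. Pearson correlations of log2(FPKM + 1) over the tested genes, as a description of the libraries, ranged from 0.9806 to 0.9849 for pairs of the same group and from 0.9427 to 0.9773 for other pairs. All 9 beta cell markers looked for had a mean FPKM of at least 1, and their summed FPKM lay between 4.56e+04 and 4.63e+04 in the BSA libraries, between 1.93e+04 and 1.98e+04 in the PA libraries and between 4.22e+04 and 4.79e+04 in the PA + C3G libraries. The sum is mostly insulin transcripts and moved with the treatment, but single markers differed. Ins1, Ins2, Iapp, Pdx1, Mafa, Slc2a2 and Slc30a8 had lower means in PA than in BSA. Ucn3 (51.9, 130 and 196 FPKM in BSA, PA and PA + C3G) and Nkx6-1 (50, 52.1 and 76) did not. Slc2a2 stood at 510, 103 and 172. The part of these markers in the clock gene results was not tested. When the FPKM values of every library were brought to a common sum, the clock gene calls in PA compared to BSA were the same, while in PA + C3G compared to PA Nr1d1 no longer passed and Per2 and Nr1d2 did. The acinar (Cpa1, Cela1), delta (Hhex alone), endothelial (Kdr alone), macrophage (Ptprc, Cd68) and fibroblast (Col1a1, Col3a1) markers summed to at most 0.674 FPKM per list in any library. Gcg, the glucagon gene of alpha cells, lay between 8.28 and 31.2 FPKM in the BSA libraries, between 1.35 and 6.02 in the PA libraries and between 4.17 and 22.5 in the PA + C3G libraries, and the 2 duct markers summed to 2.52 to 2.72, 4.64 to 6.04 and 3.05 to 3.87. Other markers on these lists, among them Sst, Ppy, Prss1, Pecam1, Adgre1 and Pdgfrb, are not analysed here. In RNA from a whole culture, fewer cells of a kind and less RNA per cell cannot be told apart. All libraries were taken at 24 h, so that a change in the level of a rhythmic gene cannot be told apart from a shift in its phase. The methods speak of biological triplicates for the experiments in general, but the labels do not say whether these libraries came from separate cultures, and p-values measure the spread between these libraries, which may be technical.

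In PA compared to BSA, all 10 clock genes passed edgeR's quasi-likelihood test at the adjusted threshold of 0.05, 8 of them higher and 2 lower. The background is large, since 51.0% of all tested genes passed in this comparison, 25.8% as higher and 25.2% as lower. The 3 libraries of the PA group also lay apart from those of the BSA group for all 10 genes, against 59.9% of all tested genes. The median absolute log2 fold change was 0.58 for the clock genes and 0.26 for all tested genes. By the fold change above 2 and unadjusted p-value under 0.05 that the study used for its differentially expressed genes, 3 of the 10 passed (Arntl, Nr1d1 and Dbp), beside 7.56% of all tested genes. Arntl and Clock, the activators, were the 2 that fell.

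**Figure D1:**
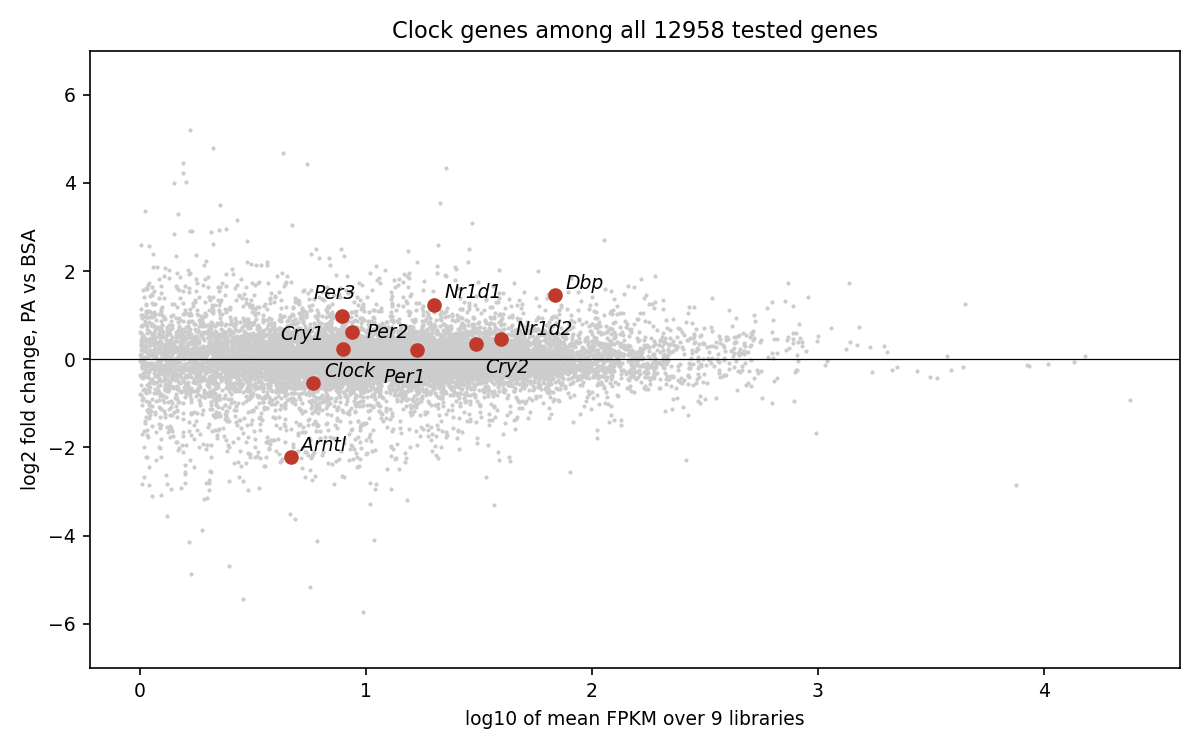
Log2 fold change in PA versus BSA (vertical axis) against the log10 of mean FPKM over the 9 libraries (horizontal axis) for the 12958 tested genes (grey) and the 10 clock genes (red, named); 10 genes beyond a log2 fold change of 7 in either direction are not drawn. Arntl lies at −2.22, below most genes of its level, and Dbp at 1.46 and Nr1d1 at 1.24 lie above most genes of theirs.

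In PA + C3G compared to PA, 5 of the 10 genes passed, beside 21.2% of all tested genes (11.1% higher and 10.2% lower). Arntl and Nr1d1 were higher, and Per3, Cry1 and Dbp were lower. When FPKM sums were made equal between libraries, 6 passed, 1 higher and 5 lower, and the split over all tested genes went from 1436 higher and 1316 lower to 775 higher and 2525 lower. Without PA + C3G replicate 1, 3 clock genes passed, and without PA replicate 3 the count over all tested genes went from 2752 to 1718. Libraries lay apart for 7 genes, against 39.5% of all tested genes, and 1 gene, Arntl, met the fold criterion, against 1.13%. In PA + C3G compared to BSA, 9 of 10 passed, 7 higher and 2 lower, beside 36.9% of all tested genes (19.0% higher and 17.9% lower). The libraries of these groups did not overlap for any of the 10 genes, against 50.3% of all tested genes, and the fold criterion was met by Arntl, Nr1d1 and Dbp, against 4.63%. The 3 comparisons share libraries, so their values are given side by side and are not independent.

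**Figure D2:**
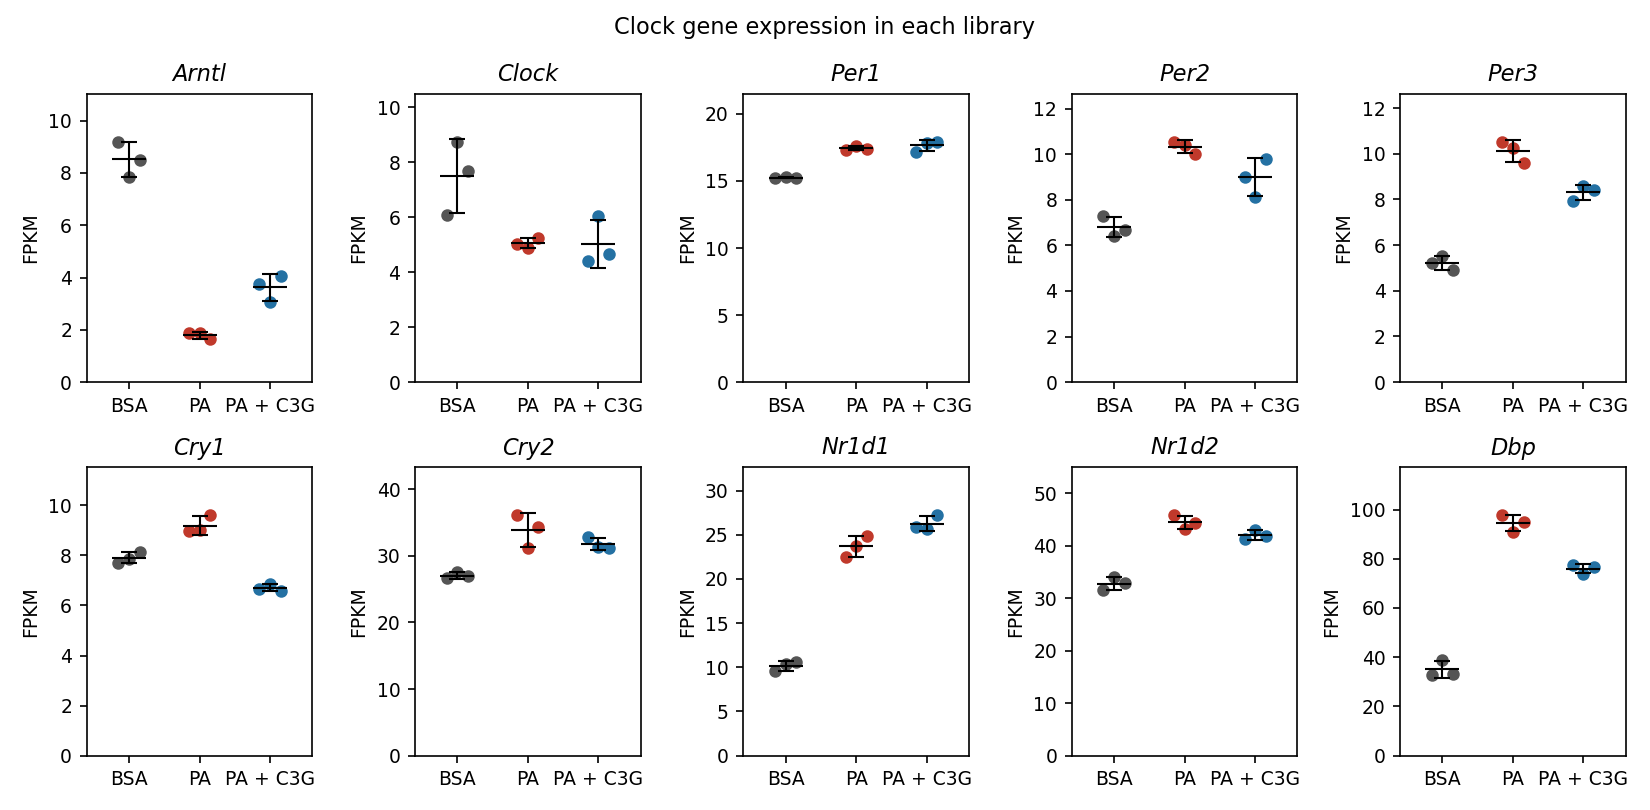
FPKM of the 10 clock genes in each of the 9 libraries (points) of the BSA, PA and PA + C3G groups, with the group mean and SD (n = 3), each gene on its own linear axis from 0. Arntl fell from a mean of 8.51 in BSA to 1.80 in PA and stood at 3.63 in PA + C3G, whereas Dbp rose from 35.0 to 94.6 and stood at 76.0.

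Arntl (ENSRNOG00000014448, chromosome 1, 178039063 to 178137465 in the authors' table, whose genome build is not given in the sources used here) encodes BMAL1, the partner of CLOCK. Its FPKM was 9.20, 7.86 and 8.48 in the BSA libraries, 1.86, 1.88 and 1.64 in the PA libraries, and 3.77, 3.07 and 4.05 in the PA + C3G libraries. Every PA library lay below every PA + C3G library, and every PA + C3G library below every BSA library. The group means were 8.51 ± 0.668, 1.80 ± 0.131 and 3.63 ± 0.508 (SD, n = 3), and the smallest estimated count in any library was 269. PA lowered Arntl 4.65-fold, a log2 fold change of −2.22 with an SE of 0.12 and a 95% interval of −2.50 to −1.94 (edgeR adjusted p = 5.61e-07). By log2 fold change it ranked 101 among the 6451 genes with a lower value in PA. In PA + C3G it was 2.07-fold higher than in PA (log2 fold change 1.05, SE 0.12, interval 0.78 to 1.32, edgeR adjusted p = 0.000548), rank 115 among 6458 genes with a higher value. It was still 2.25-fold lower than in BSA (log2 fold change −1.17, SE 0.12, edgeR adjusted p = 5.46e-05).

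Clock (ENSRNOG00000002175, chromosome 14, 34446616 to 34502218) encodes the other activator. Its FPKM was 6.08, 8.75 and 7.67 in the BSA libraries, 5.04, 4.90 and 5.24 in the PA libraries, and 4.41, 6.03 and 4.67 in the PA + C3G libraries. The BSA libraries lay above all others, but the lowest BSA library and the highest PA + C3G library were nearly level, and the PA and PA + C3G libraries overlapped. The log2 fold change was −0.54 in PA compared to BSA (SE 0.14, edgeR adjusted p = 0.00919) and −0.51 in PA + C3G compared to BSA (SE 0.14, edgeR adjusted p = 0.0176). The second of these calls was lost without BSA replicate 2 (edgeR adjusted p = 0.0528), without PA + C3G replicate 1 (0.0587) and without PA + C3G replicate 3 (0.0605). Between PA + C3G and PA the log2 fold change was 0.03, with a 95% interval of −0.28 to 0.35. The fall of Clock after PA was smaller than that of Arntl by the intervals of both, which did not overlap (−0.86 to −0.23 and −2.50 to −1.94).

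The 3 Per genes encode repressors of the loop, and Per1 and Per2 are also known as rapid targets of outside signals. Per3 (ENSRNOG00000018413, chromosome 5, 168086998 to 168123395) had FPKM values of 5.21, 5.54 and 4.90 in the BSA libraries, 10.5, 10.2 and 9.60 in the PA libraries, and 7.95, 8.57 and 8.40 in the PA + C3G libraries. The 3 groups did not overlap, with PA + C3G between the others. Per3 rose 1.97-fold in PA (log2 fold change 0.98, SE 0.06, edgeR adjusted p = 7.91e-07). It was lower in PA + C3G than in PA by a log2 fold change of −0.25 (SE 0.06, edgeR adjusted p = 0.0147), a call lost without PA + C3G replicate 1 (edgeR adjusted p = 0.0541).

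Per2 (ENSRNOG00000020254, chromosome 9, 98555169 to 98597359) had the same order of groups, with 7.30, 6.43 and 6.69 FPKM in the BSA libraries, 10.5, 10.4 and 10.01 in the PA libraries, and 8.99, 8.14 and 9.81 in the PA + C3G libraries. All PA + C3G libraries were below all PA libraries, the closest being 9.81 and 10.01. Per2 rose in PA with a log2 fold change of 0.62 (SE 0.07, edgeR adjusted p = 5.97e-05), and the difference between PA + C3G and PA, −0.16 with a 95% interval of −0.32 to −0.01, did not pass after adjustment (edgeR adjusted p = 0.133). Per1 (ENSRNOG00000007387, chromosome 10, 55687050 to 55695994) had the smallest estimate among the genes that rose in PA, with 15.2, 15.3 and 15.2 FPKM in the BSA libraries, 17.3, 17.6 and 17.4 in the PA libraries, and 17.2, 17.8 and 17.9 in the PA + C3G libraries. Spread among its BSA libraries was small (SD 0.0585 FPKM), and the log2 fold change of 0.22 passed the test (SE 0.04, edgeR adjusted p = 0.000583). Its PA and PA + C3G libraries overlapped (log2 fold change 0.05, 95% interval −0.03 to 0.13). Against BSA, the PA + C3G group was higher for all 3 genes, with log2 fold changes of 0.27 for Per1, 0.46 for Per2 and 0.73 for Per3.

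Cry1 and Cry2 encode the cryptochromes, the strongest repressors of CLOCK and BMAL1. Cry1 (ENSRNOG00000006622, chromosome 7, 24534615 to 24634097) had 7.71, 7.87 and 8.14 FPKM in the BSA libraries, 8.96, 9.01 and 9.61 in the PA libraries, and 6.68, 6.87 and 6.58 in the PA + C3G libraries. The groups did not overlap, and here the PA + C3G libraries were the lowest, below those of the BSA group. Cry1 rose in PA (log2 fold change 0.24, SE 0.06, edgeR adjusted p = 0.00922) and was lower in PA + C3G than in PA (−0.42, SE 0.06, edgeR adjusted p = 0.00199). The difference between PA + C3G and BSA, −0.18 with a 95% interval of −0.32 to −0.04, missed the threshold (edgeR adjusted p = 0.0524). Cry2 (ENSRNOG00000007478, chromosome 3, 81314149 to 81344110) had 26.6, 27.5 and 26.9 FPKM in the BSA libraries, 36.1, 31.2 and 34.3 in the PA libraries, and 32.8, 31.3 and 31.1 in the PA + C3G libraries. PA and PA + C3G libraries were above all BSA libraries and overlapped each other. The log2 fold change was 0.35 in PA (SE 0.05, edgeR adjusted p = 0.000368) and 0.29 in PA + C3G (edgeR adjusted p = 0.00176), each against BSA. Between PA + C3G and PA it was −0.05, with a 95% interval of −0.17 to 0.06.

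Nr1d1 (ENSRNOG00000009329, chromosome 10, minus strand, 86683875 to 86690815) encodes REV-ERB alpha, the repressor of Arntl. Its FPKM was 9.55, 10.3 and 10.6 in the BSA libraries, 22.5, 23.7 and 24.8 in the PA libraries, and 25.8, 25.7 and 27.2 in the PA + C3G libraries. The PA libraries were all above the BSA libraries, and the PA + C3G libraries above both. Nr1d1 rose 2.37-fold in PA (log2 fold change 1.24, SE 0.06, edgeR adjusted p = 1.42e-07) and 2.69-fold in PA + C3G (1.43, edgeR adjusted p = 2.15e-07), each against BSA. The step from PA to PA + C3G, a log2 fold change of 0.19 with an SE of 0.05, passed narrowly (edgeR adjusted p = 0.0369), and the call was lost when any of the 6 libraries of these groups was left out (edgeR adjusted p from 0.0502 to 0.119) and when FPKM sums were made equal (0.218).

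Thra, which encodes a thyroid hormone receptor, lies on the plus strand and shares 1059 bases with Nr1d1 in the authors' table. The library kit marks strand, but the strand setting of the counting is not given in the sources used here, so reads of the shared stretch could have been assigned to either gene. Thra itself stood at 16.9 ± 0.761, 17.1 ± 1.58 and 16.7 ± 0.495 FPKM (SD, n = 3) in the BSA, PA and PA + C3G groups, with a log2 fold change in PA of 0.04 (SE 0.06, edgeR adjusted p = 0.657).

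Nr1d2 (ENSRNOG00000046912, chromosome 15, 8730871 to 8757165), which encodes REV-ERB beta, had 31.5, 34.0 and 32.9 FPKM in the BSA libraries, 45.8, 43.2 and 44.3 in the PA libraries, and 41.3, 43.1 and 41.8 in the PA + C3G libraries. The PA + C3G libraries lay above BSA and just below PA, with 43.1 beside 43.2 at the closest. Nr1d2 rose by a log2 fold change of 0.46 in PA (SE 0.04, edgeR adjusted p = 9.85e-06) and of 0.42 in PA + C3G (edgeR adjusted p = 3.47e-05), each against BSA, and between PA + C3G and PA the value was −0.04 with a 95% interval of −0.13 to 0.05. Of the paralogs, Nr1d1 had the larger log2 fold change in PA, and the ratio of Nr1d1 to Nr1d2 within a library went from 0.303 to 0.323 in BSA to 0.491 to 0.560 in PA and 0.596 to 0.651 in PA + C3G.

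Dbp (ENSRNOG00000021027, chromosome 1, 101687855 to 101692846) encodes a PAR bZIP factor, a direct output of CLOCK and BMAL1 that drives D-box genes. Its FPKM was 32.8, 39.0 and 33.2 in the BSA libraries, 97.7, 90.9 and 95.0 in the PA libraries, and 77.5, 73.8 and 76.7 in the PA + C3G libraries. No groups overlapped, and PA + C3G lay between the others, nearer to PA. Dbp rose 2.75-fold in PA (log2 fold change 1.46, SE 0.07, edgeR adjusted p = 1.54e-07), rank 190 by log2 fold change among the 6506 genes with a higher value. It was lower in PA + C3G than in PA (−0.28, SE 0.06, edgeR adjusted p = 0.0145) and 2.26-fold higher than in BSA (edgeR adjusted p = 1.14e-06).

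**Figure D3:**
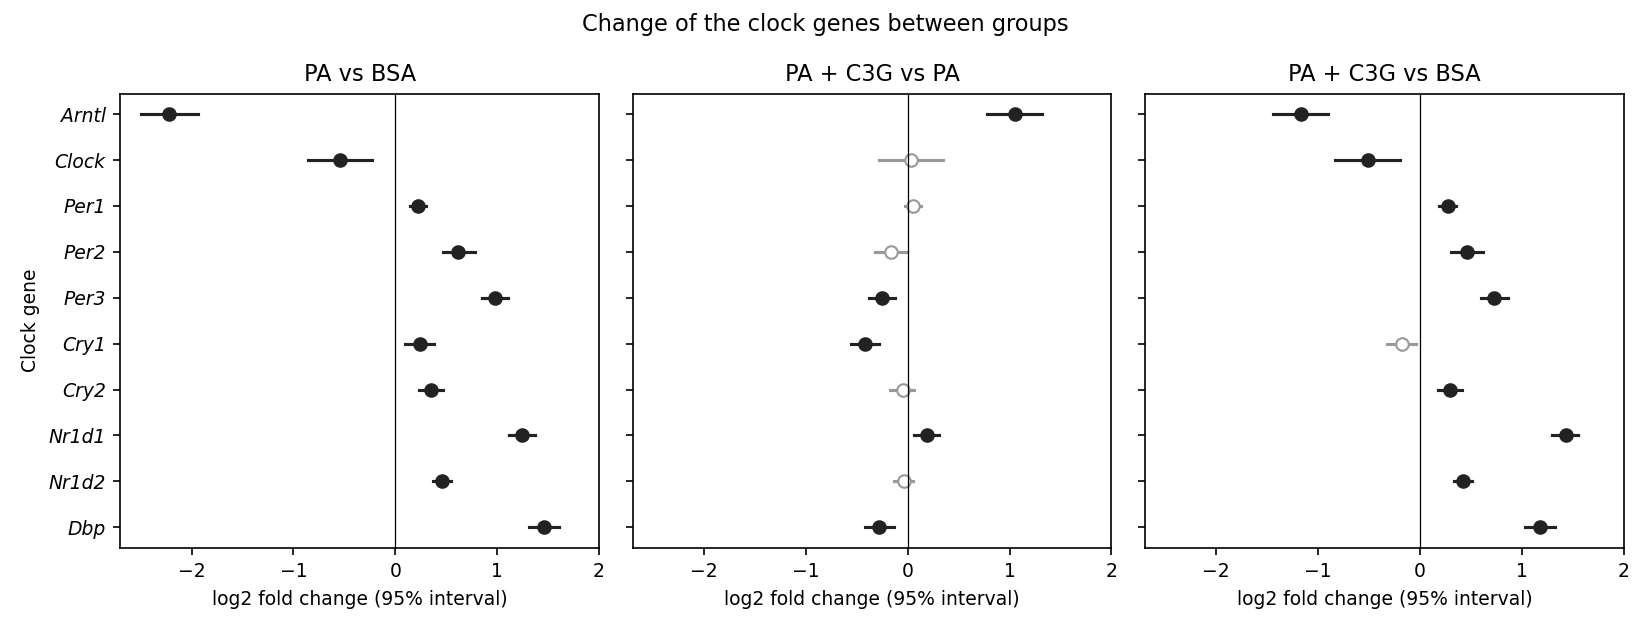
Log2 fold change of each clock gene in PA versus BSA, PA + C3G versus PA and PA + C3G versus BSA, with 95% intervals from edgeR; filled points pass an adjusted p-value under 0.05 and open points do not. Arntl lies at −2.22 in PA versus BSA and at 1.05 in PA + C3G versus PA, while Nr1d1 lies above 0 in all 3 comparisons.

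Among the genes called in PA + C3G compared to PA, Arntl, Per3, Dbp and Cry1 had the opposite sign in PA compared to BSA. In that order of comparisons, the log2 fold changes were 1.05 and −2.22 for Arntl and −0.25 and 0.98 for Per3. They were −0.28 and 1.46 for Dbp and −0.42 and 0.24 for Cry1. Nr1d1, at 0.19 and 1.24, lay above 0 in both. The PA libraries enter both comparisons, so these pairs of values are tied to each other and the signs are given as a description. The share of all tested genes with opposite signs was not counted.

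Since FPKM is scaled to gene length, levels of different genes can be ordered within a group. In BSA, the order of mean FPKM ran Dbp 35.0, Nr1d2 32.8, Cry2 27.0, Per1 15.3, Nr1d1 10.2, Arntl 8.51, Cry1 7.91, Clock 7.50, Per2 6.81 and Per3 5.22. Dbp and Nr1d2 overlapped, as did each neighbouring pair from Arntl to Per2. In PA the order became Dbp 94.6, Nr1d2 44.4, Cry2 33.8, Nr1d1 23.7, Per1 17.5, Per2 10.3, Per3 10.1, Cry1 9.19, Clock 5.06 and Arntl 1.80. There the overlapping neighbours were Per2 with Per3 and Per3 with Cry1. Nr1d1 had moved above Per1, and Arntl had moved from the middle to the last place. PA + C3G had the same order as PA, with Arntl last at 3.63 and only Per2 and Per3 overlapping.

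Ratios within a library need no scaling between libraries, and those between the E-box genes and Arntl moved furthest. They are given as a description, since each pair holds genes already tested. The ratio of Dbp to Arntl was 3.57 to 4.96 in the BSA libraries, 48.4 to 57.8 in the PA libraries and 18.9 to 24.1 in the PA + C3G libraries. That of Nr1d1 to Arntl was 1.04 to 1.32, 12.1 to 15.1 and 6.72 to 8.37 in the same order. No group overlapped another in either ratio, and PA + C3G lay between BSA and PA in both. The ratio of Per1 to Arntl went from 1.66 to 1.95 in BSA to 9.31 to 10.6 in PA and 4.43 to 5.82 in PA + C3G, while Per1 itself differed between BSA and PA by 0.22 on the log2 scale. Cry1 to Cry2 behaved otherwise. It was 0.286 to 0.303 in BSA and 0.248 to 0.289 in PA, which overlap, and 0.204 to 0.219 in PA + C3G, below both.

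**Figure D4:**
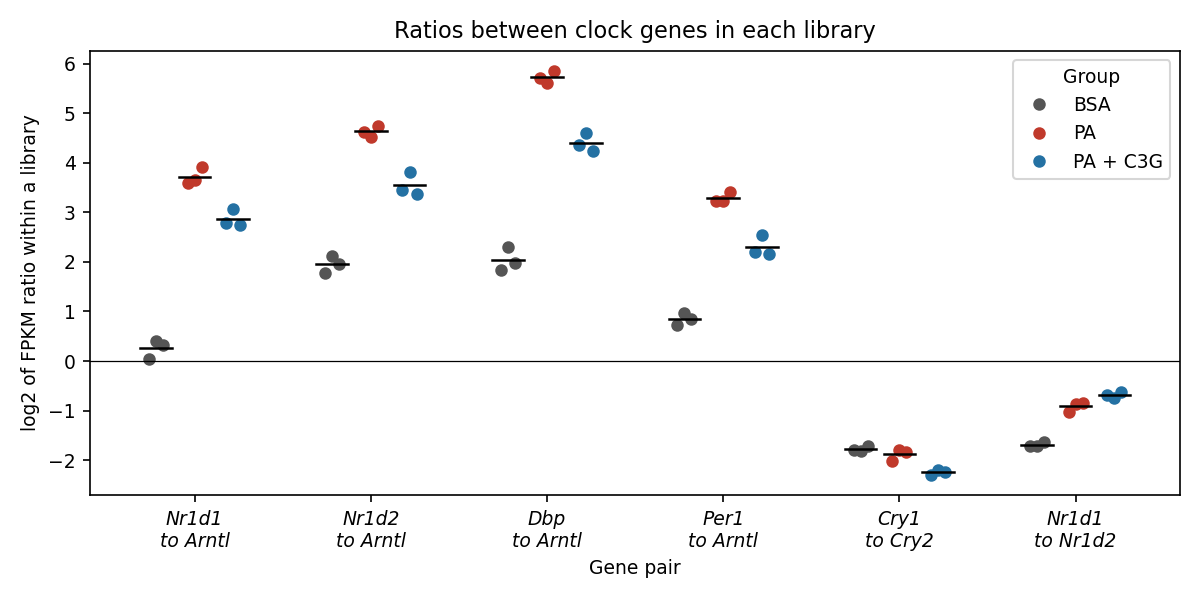
Log2 ratio of FPKM between pairs of clock genes within each library (points) for the BSA, PA and PA + C3G groups, with bars at the group means (n = 3). The mean log2 ratio of Nr1d1 to Arntl is 0.26 in BSA, 3.72 in PA and 2.86 in PA + C3G.

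Genes with the most similar pattern were sought for all 10 clock genes and are named for the 4 with the largest absolute change in PA. Likeness was taken as the Pearson r of log2(FPKM + 1) over the 9 libraries, which fall into the 3 groups and share their depth. Arntl was most like Usp14 (r = 0.9965), Mms22l (0.9962) and Cdt1 (0.9954), and 590 genes had an r of at least 0.95. Mms22l, a gene of replication fork repair, had mean FPKM values of 13.6 in BSA, 2.58 in PA and 5.18 in PA + C3G, and Cdt1, a replication licensing factor, 15.1, 5.24 and 8.25. Dbp was most like Txndc11 (0.9997), Tpp1 (0.9981) and Bhlha15 (0.996), among 471 genes at or above 0.95. The first of these, a thioredoxin domain protein, had mean FPKM values of 18.3, 46.5 and 37.7, and Bhlha15, the secretory cell factor MIST1, 4.48, 24.0 and 17.4. For Nr1d1 they were Fuca2 (0.9958), Scarb1 (0.9938) and Acaa2 (0.9937), among 199 genes, and for Per3 they were Timm29 (0.9947), Vegfb (0.9914) and Dnm1 (0.9911), among 450. For the genes not named here, the number at or above 0.95 was 353 for Nr1d2, 156 for Per2, 136 for Per1, 63 for Cry2, 20 for Cry1 and 4 for Clock.

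The other regulators of clock transcription, a list of 13 genes of which 12 were tested, divided evenly. In PA compared to BSA, 4 rose and 4 fell (66.7% called, beside 51.0% of all tested genes), with a median log2 fold change of 0.01. Bhlhe40 and Bhlhe41, the DEC repressors that compete at E-boxes, rose by 0.78 (SE 0.12, edgeR adjusted p = 0.000358) and 1.04 (SE 0.10, edgeR adjusted p = 2.34e-05). Tef, a PAR bZIP relative of Dbp, rose by 0.75 (SE 0.04, edgeR adjusted p = 2.83e-07), from 21.5 ± 0.493 to 35.6 ± 0.584 FPKM (SD, n = 3). Hlf, the other relative, fell by 0.89 on the log2 scale (edgeR adjusted p = 8.59e-05), from 21.0 ± 0.967 to 11.2 ± 0.954 FPKM. The 3 PAR bZIP genes therefore did not move together, with Dbp and Tef higher and Hlf lower. Nfil3, which encodes the repressor E4BP4 of the same D-boxes, fell by 0.51, and Timeless, a replication fork protein homologous to the fly clock gene, fell by 1.04 (edgeR adjusted p = 9.62e-06). The 4 that did not pass included Npas2, a paralog of Clock, at −0.13 (edgeR adjusted p = 0.46), and Rora, which activates Arntl through the ROR element, at 0.29 (edgeR adjusted p = 0.222). Compared to PA, the PA + C3G group had 1 higher and 3 lower (33.3% called, beside 21.2% of all tested genes), or 1 and 4 with FPKM sums made equal. Timeless rose by 0.52 (edgeR adjusted p = 0.0038), Bhlhe40 was lower (−0.47, edgeR adjusted p = 0.0175), Tef was lower (−0.13, edgeR adjusted p = 0.037) and Rorb was lower (−0.75, edgeR adjusted p = 0.0198). These last 3 calls were each lost on leaving out 1 of several libraries: PA replicate 1 (edgeR adjusted p = 0.0509 for Bhlhe40, 0.0924 for Tef and 0.0641 for Rorb), PA replicate 2 (0.0712 for Tef, 0.0617 for Rorb), PA replicate 3 (0.0629 for Bhlhe40, 0.109 for Tef), PA + C3G replicate 1 (0.0562 for Rorb), PA + C3G replicate 2 (0.0504 for Bhlhe40, 0.076 for Tef), PA + C3G replicate 3 (0.0542 for Bhlhe40, 0.119 for Tef, 0.0682 for Rorb) and BSA replicate 3 (0.0511 for Tef). Against BSA, the PA + C3G group had 3 higher and 5 lower (66.7% called, beside 36.9% of all tested genes). Arntl2, the paralog of Arntl, was below the filter at a mean of 0.153 FPKM.

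Kinases and ubiquitin ligase parts, which set how long PER and CRY proteins last, numbered 17, all tested. In PA compared to BSA, 3 rose and 8 fell (64.7% called), and 4 rose and 6 fell in PA + C3G compared to BSA (58.8% called). Of all tested genes, 51.0% and 36.9% were called in these comparisons. With FPKM sums made equal, the splits of the list were 3 and 6, and 2 and 9. Prkaa2, a catalytic subunit of AMPK, changed most, from 34.7 ± 1.96 FPKM in BSA to 16.5 ± 0.548 in PA and 15.0 ± 0.805 in PA + C3G (SD, n = 3), with a log2 fold change of −1.05 in PA (edgeR adjusted p = 4.75e-07). Prkaa1, the other catalytic subunit, stood at −0.08 in PA (edgeR adjusted p = 0.197) and −0.15 in PA + C3G (edgeR adjusted p = 0.0321), each against BSA. Usp2 fell by 0.79 (SE 0.23, edgeR adjusted p = 0.0176), a call lost without PA replicate 3 (edgeR adjusted p = 0.051). Skp1 and Rbx1, subunits of SCF ligases, fell by 0.37 and 0.33, and Csnk2b fell by 0.22 (edgeR adjusted p = 0.0074). Csnk1d, which encodes casein kinase 1 delta, a kinase of PER proteins, fell by 0.18 (edgeR adjusted p = 0.0041), while Csnk1e stood at 0.01 (edgeR adjusted p = 0.891). Fbxl21 rose by 0.31 (edgeR adjusted p = 0.0321), Csnk2a2 by 0.23 (edgeR adjusted p = 0.00214) and Gsk3a by 0.22 (edgeR adjusted p = 0.000252). In PA + C3G compared to PA, 1 of the 17 passed (5.88%, beside 21.2% of all tested genes), Btrc, which encodes a ligase subunit that recognises PER proteins, with a log2 fold change of 0.25 (edgeR adjusted p = 0.00229). When FPKM sums were made equal, 1 rose and 4 fell in that comparison, beside 775 higher and 2525 lower of all 12958 tested genes.

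Chromatin and cofactor partners of the clock numbered 11, of which 10 were tested. None rose and 3 fell in PA compared to BSA (1 and 2 with FPKM sums made equal), a share of 30.0% below the 51.0% of all tested genes, and none rose and 5 fell in PA + C3G compared to BSA (50.0% called, beside 36.9% of all tested genes). Between PA + C3G and PA, 1 rose and 2 fell (30.0%, beside 21.2%). Ezh2, the methyltransferase of Polycomb complex 2, had 27.1 ± 1.34, 11.1 ± 0.756 and 14.1 ± 0.537 FPKM (SD, n = 3) in the BSA, PA and PA + C3G groups. In PA it fell by 1.26 on the log2 scale (edgeR adjusted p = 2.47e-07) and was higher in PA + C3G than in PA (0.38, edgeR adjusted p = 0.00268). Sfpq, a PER complex partner, fell by 0.54 in PA (edgeR adjusted p = 1.68e-05). Its partner Nono was at 0.06 in PA (edgeR adjusted p = 0.267) and differed in PA + C3G from PA (lower, −0.26, edgeR adjusted p = 0.00265).

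Of 10 output genes, 8 were tested. In PA compared to BSA, 2 rose and 4 fell (75.0% called, beside 51.0% of all tested genes). Between PA + C3G and PA, 3 rose and 1 fell (50.0% called, beside 21.2% of all tested genes), or 3 and 2 with FPKM sums made equal. Klf10, a circadian Krüppel-like factor, had 64.4 ± 6.48, 27.7 ± 0.970 and 38.8 ± 1.52 FPKM (SD, n = 3) in BSA, PA and PA + C3G, with log2 fold changes of −1.19 in PA (edgeR adjusted p = 7.31e-07) and 0.52 in PA + C3G compared to PA (edgeR adjusted p = 0.00113). Noct, a rhythmic dinucleotide phosphatase also called nocturnin, fell by 0.72 in PA (edgeR adjusted p = 8.44e-05) and was higher in PA + C3G than in PA by 0.60 (edgeR adjusted p = 0.00163). In PA + C3G it stood at −0.12 against BSA (edgeR adjusted p = 0.32). Klf9 fell by 0.54 in PA and was higher by 0.28 in PA + C3G. Nampt, the rate-limiting enzyme of NAD salvage, went the other way, at 0.45 in PA (edgeR adjusted p = 5.02e-05) and −0.23 in PA + C3G compared to PA (edgeR adjusted p = 0.0119). In PA + C3G compared to BSA, 2 rose and 3 fell (62.5% called, beside 36.9% of all tested genes).

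A further list held genes that respond to CREB or glucocorticoids, inputs known to act on Per1. It also held Creb1 and Nr3c1, which encode CREB and the glucocorticoid receptor and enter the counts below. The list numbered 13 genes, of which 11 were tested. In PA compared to BSA, 2 rose and 5 fell (63.6% called, beside 51.0% of all tested genes). Ppargc1a, a coactivator of mitochondrial genes, rose from 1.07 ± 0.317 to 4.40 ± 0.885 FPKM (SD, n = 3), a log2 fold change of 2.06 (SE 0.22, edgeR adjusted p = 4.54e-05). It stood at 2.23 ± 0.143 in PA + C3G, lower than in PA (−0.94, edgeR adjusted p = 0.014), a call lost without PA replicate 1 (edgeR adjusted p = 0.0502). Sgk1, a serum and glucocorticoid induced kinase, rose by 1.01 in PA (edgeR adjusted p = 0.000251), while Dusp1, another target of both inputs, fell by 1.07 (edgeR adjusted p = 5.76e-08) and was higher by 0.30 in PA + C3G than in PA (edgeR adjusted p = 0.00109). Crem fell by 1.02 in PA (SE 0.28, edgeR adjusted p = 0.0121), with a BSA level of 6.03 ± 2.53 FPKM, and its log2 fold change was −0.66 without BSA replicate 3. In PA + C3G, 2 rose and 1 fell compared to PA (27.3% called, beside 21.2% of all tested genes), or 1 and 2 with FPKM sums made equal. Compared to BSA, 3 rose and 5 fell (72.7% called, beside 36.9%).

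The KEGG circadian rhythm annotation of the authors' table held 29 tested genes, 8 of them clock genes described above. In PA compared to BSA, 8 rose and 8 fell (55.2% called, beside 51.0% of all tested genes). Without the clock genes, 2 rose and 6 fell of 21, a called share of 38.1%. In PA + C3G compared to PA, 1 rose and 2 fell of these 21 (14.3%, beside 21.2% of all tested genes), and in PA + C3G compared to BSA, 2 rose and 7 fell (42.9%, beside 36.9%). With FPKM sums made equal, these became 1 and 6, and 1 and 9. For all 29 genes, 3 rose and 4 fell in PA + C3G compared to PA (24.1%, beside 21.2% of all tested genes). Compared to BSA, 7 rose and 9 fell (55.2%, beside 36.9%). With FPKM sums made equal, these became 2 and 9, and 6 and 12. Over all tested genes, that rescaling gave 775 higher and 2525 lower compared to PA, and 1891 and 3038 compared to BSA.

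**Figure D5:**
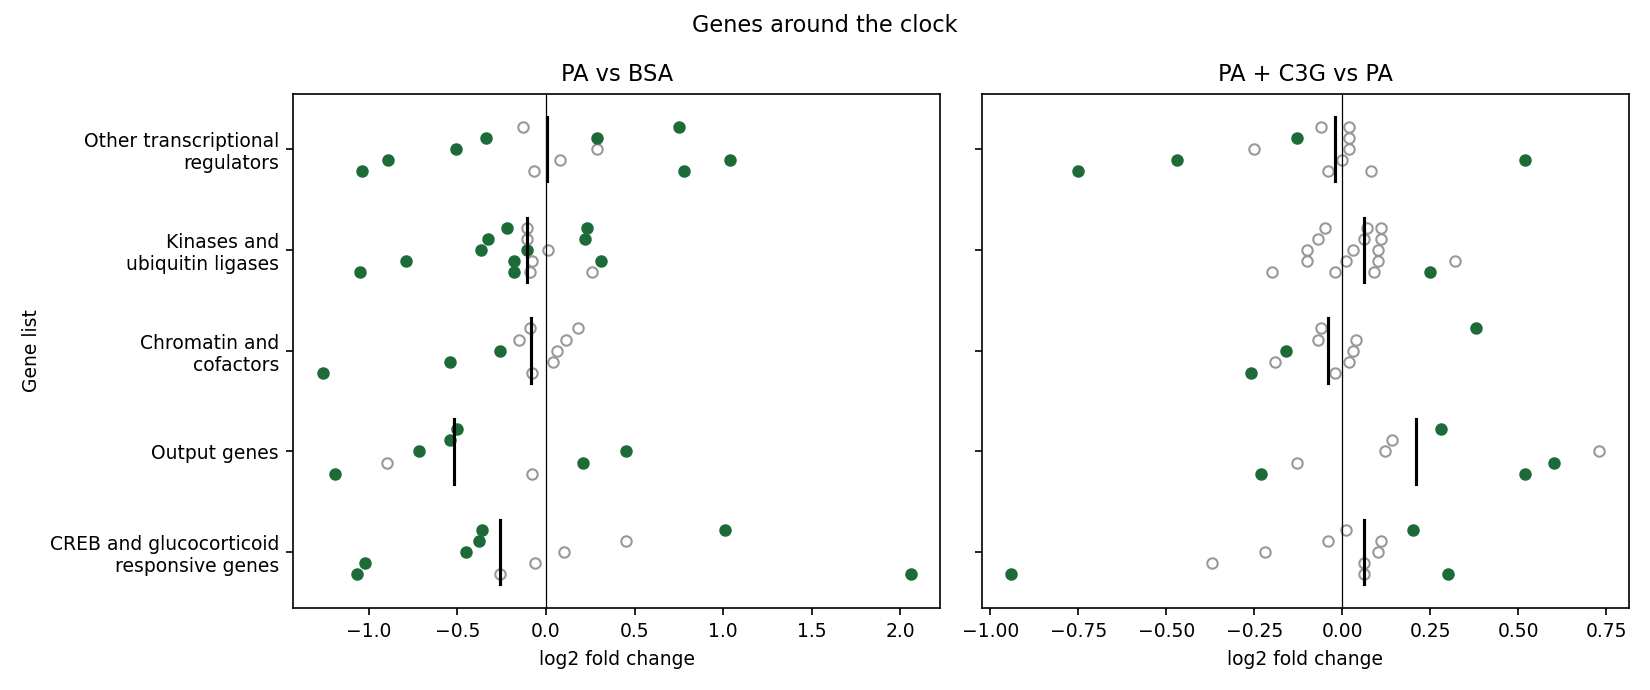
Log2 fold change of each tested gene of the 5 lists of other clock-related genes in PA versus BSA and PA + C3G versus PA; filled points pass an adjusted p-value under 0.05 in edgeR, open points do not, and bars mark the median of each list. Of the output genes, 2 rose and 4 fell in PA versus BSA, and 3 rose and 1 fell in PA + C3G versus PA.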

How the data were processed

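INS-1E libraries of 3 groups (BSA, PA, PA + C3G, 3 each) were grouped by their labels. The labels read control, palmitic acid treated and cyanidin-3-o-glucoside treated. The BSA of the control, the palmitic acid given with C3G and the doses were taken from the study's methods. The authors deposited estimated counts per gene, not normalized, and FPKM values, scaled by gene length and sequencing depth. The submitters' processing notes name cutadapt 1.9, HISAT2 2.0.4, StringTie 1.3.4d, DESeq2 and edgeR. The genome build, annotation and strand setting are not given in the sources used here. Low estimated counts piled up at multiples of 4, with 4044 values at 4 beside 2040 at 3 and 1276 at 5. Sampling error may therefore exceed what the totals give, which was not tested, and division by 4 was tried. Annotation columns were used for names, positions and KEGG terms.

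The 12958 genes whose FPKM averaged 1 or more were tested with edgeR 4.0.16 in R 4.3.3 (TMM, quasi-likelihood, 1 fit over all 9 libraries, Benjamini-Hochberg adjustment over all tested genes). The plan assumed counts, and the estimated counts, which are whole numbers, were used as such. Intervals are 95%. Alternatives were DESeq2 1.42.0, other scalings and filters, limma 3.58.1 on log2(FPKM + 1) and log2(FPKM + 0.1), a replicate block and leaving out each library; those for genes named from the lists were added after the data were seen. The procedure was tested on simulated data with few changed genes and no pile-up at multiples of 4, a setting unlike these data.

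The 10 members and all lists were chosen with earlier results of these data known. All 10 were described whatever their values. From each list, genes that passed could be named, largest changes first, up to 5 per direction. Csnk1d was named outside this rule, and those named that did not pass were chosen after their values were seen. Leaving out a library was not looked at for Fbxl21, Csnk2a2, Csnk2b and Prkaa1. Lists covered other transcriptional regulators, kinases and ligase parts, chromatin partners, outputs, CREB and glucocorticoid genes, and KEGG circadian rhythm. Promoter windows came from RefSeq (GRCr8), where Arntl is listed as Bmal1, and were searched for exact letters on both strands. The plan was to print the windows of the clock genes that moved most, but those with a match were printed. Dbp and Per3, which moved more than Per2 and Cry2, had no match and are not printed.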

Additional observations from a re-analysis of the deposited data

How the results depend on the processing

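All 10 clock gene calls in PA compared to BSA held under every alternative that gave a value, 19 settings for 9 genes and 18 for Arntl, whose mean FPKM lies below the stricter filter of 5, and the count there was 9. Leaving out 1 library gave 10 clock genes in that comparison each time, 3 to 5 in PA + C3G compared to PA (3 without PA + C3G replicate 1, where Per3 and Nr1d1 were lost) and 8 to 9 in PA + C3G compared to BSA. Over all tested genes it gave 5852 to 6621, 1718 to 2838 and 3864 to 4684 calls, with 1718 without PA replicate 3 beside 2752 with all libraries. Arntl lay between −2.28 and −2.15 in PA compared to BSA and between 0.96 and 1.15 in PA + C3G compared to PA on leaving out 1 library, and limma on log2(FPKM + 1) gave −1.77 and 0.72.

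Values that changed sign belonged to differences between PA + C3G and PA that did not pass in the first place. Making the FPKM sums equal gave −0.04 for Per1 and −0.06 for Clock, limma gave −0.01 for Clock with a pseudocount of 1 and −0.02 with 0.1, and Clock ran from −0.12 (without PA + C3G replicate 2) to 0.12 on leaving out 1 library. The rescaling also let Per2 (−0.25, edgeR adjusted p = 0.0322) and Nr1d2 (−0.13, edgeR adjusted p = 0.0397) pass. Nr1d1 kept its sign and lost its call in 10 of 19 alternatives. Cry1 in PA + C3G compared to BSA passed in 7 of 19. The cause of these changes was not tested. Splits moved with that rescaling in PA + C3G compared to BSA as well, from 2462 higher and 2321 lower to 1891 and 3038.

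Same-numbered libraries did not deviate together (r from −0.092 to 0.08 over the 3 comparisons), so the numbers were not taken as a pairing. With the replicate number as a block, 10, 5 and 9 clock genes and 6843, 3118 and 5058 of all tested genes were called in the 3 comparisons. Among the clock genes the depth was lowest for Arntl in PA, with 269 estimated counts in 1 library.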
